A study of Arabidopsis thaliana with 36 samples.

Results

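What remained of RpoB on plastid DNA was compared between the ptac3 and ptac14 mutants of Arabidopsis thaliana. The comparison used the 12 RpoB libraries of the mutants out of 36 libraries in the series. They were chosen from the sample titles: 3 chromatin immunoprecipitation (ChIP) and 3 input libraries of ptac3, and 3 ChIP and 3 input libraries of ptac14. Input is the same kind of chromatin sequenced without immunoprecipitation. All plants were untreated seedlings aged 5 days, grown under continuous light on 0.5-strength MS medium after 48 h of dark stratification. Chloroplasts were enriched from 50 seedlings per sample after crosslinking with 4% formaldehyde for 4 h. The labels name the mutants without alleles, and their genotype tag reads wild type for every sample, so the named plant lines and titles were used. The ptac3 and ptac14 libraries belonged to separate sets, each with its own RpoB ChIP in the wild type, Col0. Set and mutant therefore cannot be told apart in any value given here. Col0 and a pTAC3 ChIP done in ptac3 seedlings, which lack its antigen, served for description and entered no test. The labels do not say whether replicates were separate cultures, so p-values measure only the spread between these samples, which may be technical.

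The beta subunit RpoB belongs to the core of PEP, the plastid-encoded RNA polymerase, a bacterial-type enzyme that transcribes most photosynthesis genes, tRNA genes and the rRNA operon of the chloroplast. pTAC3 and pTAC14 are nuclear-encoded proteins that associate with PEP, and mutants lacking either are pale seedlings that fail to green normally. A second, phage-type polymerase (NEP) is encoded in the nucleus and transcribes a few plastid genes, among them those for the PEP core. The series as a whole asked whether PEP needs pTAC3 and pTAC14 to bind DNA. The question here was whether the signal left in the mutants differs between them.

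RpoB ChIP coverage per position averaged 104.8, 147.6 and 204.2 reads in replicates 1, 2 and 3 of ptac3, against 69.09, 149.4 and 142.5 reads in ptac14. The ptac3 inputs had mean coverages of 483.4, 769.3 and 482.1 reads, and the ptac14 inputs 722.7, 823.8 and 760 reads. Counting error at these means lay between 3.48% and 12% of the value at a single position. Each library was scaled to its mean, and enrichment is log2(ChIP/input) of the same replicate, so 0 means as much as in input and all values are relative within a library. Less RpoB on DNA and fewer reads recovered from the same DNA cannot be told apart on this scale. Unless another order is stated, values of 3 replicates run from replicate 1 to replicate 3.

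One library stood apart. Over 771 bins of 200 bp, the enrichment of ptac14 replicate 3 correlated at r = -0.22 with ptac14 replicate 1 and at r = -0.16 with ptac14 replicate 2. Replicates 1 and 2 of ptac14 correlated at r = 0.56 with each other, and the ptac3 replicates at r = 0.31, 0.16 and 0.61. Neighbouring bins share reads and all bins of a library share its depth, so these coefficients only describe the libraries. Mean coverage of ptac14 replicate 3 was close to that of ptac14 replicate 2. Its profile followed that of Col0 at r = 0.81, a value no other mutant library reached, with ptac3 replicate 3 next at 0.55. Its mean over the 4 rRNA genes was 0.44, against 1.47 or more in every Col0 library. Whether its label is right was not tested. The library was kept as ptac14, as labelled, in all means. Counts of called bins and the differences of the rRNA genes, trnE, trnT and the bins of the trnK to rps16 spacer are also given without it.

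The rRNA genes separated the replicates of each mutant more than they separated the mutants. The 4 rRNA genes encode the structural RNAs of the plastid ribosome and lie in the inverted repeat. The first copy was counted, except for ArthCr091, whose entry had no mirrored partner and lay in the second copy. Mean enrichment of the 4 genes was -0.11, 0.28 and 0.37 in the 3 ptac3 replicates, against -0.28, -0.39 and 0.44 in ptac14. Both mutants had values on either side of input, and their ranges overlapped. The means were 0.18 ± 0.26 in ptac3 and -0.08 ± 0.45 in ptac14 (SD, n = 3 each). The difference of 0.26 was smaller than the spread in ptac14 and gave p = 0.4 in a two-sided exact permutation test. With 3 against 3 the smallest p such a test allows is 0.1. Without ptac14 replicate 3 the difference was 0.52 and the exact permutation p was 0.2, with no overlap between the remaining values. Leaving out other libraries gave 0.11 without ptac14 replicate 2, 0.16 without ptac14 replicate 1, 0.17 without ptac3 replicate 3 and 0.41 without ptac3 replicate 1.

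For scale, the same rRNA genes averaged 1.72 ± 0.28 in Col0 of the ptac3 set and 1.95 ± 0.25 in Col0 of the ptac14 set (SD, n = 3 each). The pTAC3 ChIP in ptac3 seedlings, a background without antigen, gave -0.27, 0.48 and 0.15. The ptac3 RpoB values lay within the range of that background. No such library for ptac14 was analysed here.

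The tRNA genes, which supply the transfer RNAs of plastid translation, had values slightly above input in both mutants. The mean over 30 tRNA genes was 0.11, 0.24 and 0.16 in ptac3, against 0.10, 0.11 and 0.48 in ptac14. All 6 values were above 0, the ptac14 range enclosed the ptac3 range, and ptac14 replicate 3 was the highest. The means were 0.17 ± 0.06 in ptac3 and 0.23 ± 0.22 in ptac14 (SD, n = 3 each). The difference of -0.06 gave p = 1 in the exact permutation test. It changed sign to 0.06 without ptac14 replicate 3. The pTAC3 ChIP background over the same genes was 0.06, 0.28 and 0.21, whose range held all 3 ptac3 RpoB values. Col0 of the ptac3 set averaged 1.18 ± 0.16, and Col0 of the ptac14 set 1.40 ± 0.04. Counted gene by gene, 23, 26 and 23 of the 30 tRNA genes were above input in the ptac3 replicates, against 18, 23 and 30 in the ptac14 replicates.

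Protein-coding genes were close to input level in both mutants. Over 79 such genes the mean was 0.03, -0.02 and -0.05 in ptac3, against 0.07, 0.07 and -0.06 in ptac14, a difference of -0.04 with exact permutation p = 0.6. The ranges overlapped. Col0 of the ptac3 set averaged -0.75 ± 0.21, and Col0 of the ptac14 set -1.11 ± 0.31, where the scaling to the mean sets unbound genes below input. The contrast of rRNA over protein-coding genes was -0.14, 0.30 and 0.42 in ptac3, against -0.35, -0.47 and 0.50 in ptac14, with p = 0.4 in the exact permutation test. Its difference of 0.30 ran from 0.12 without ptac14 replicate 2 to 0.61 without ptac14 replicate 3. The contrast of tRNA over protein-coding genes was 0.08, 0.26 and 0.21 in ptac3, against 0.03, 0.04 and 0.54 in ptac14, with p = 1 in the exact permutation test. In Col0 these contrasts averaged 2.47 and 1.93 in the ptac3 set, and 3.06 and 2.51 in the ptac14 set.

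Bins that overlap no gene were the one class whose values did not overlap between the mutants. Their mean over 134 bins was -0.09, -0.15 and -0.11 in ptac3, against 0.04, 0.04 and -0.07 in ptac14. The difference of -0.12 reached the smallest p the exact permutation test allows, 0.1. Its Benjamini-Hochberg adjusted value over the 7 exact tests made was 0.35. The 2 Col0 groups differed by 0.27 in the opposite direction over these bins. The pTAC3 ChIP in ptac3 seedlings, the background without antigen, gave 0.00, -0.15 and -0.08 over them. The ptac3 RpoB values did not fall below that background, whose lowest value was also -0.15. Of the ptac14 values, -0.07 lay within the background range and the others above it.

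**Figure D1:**
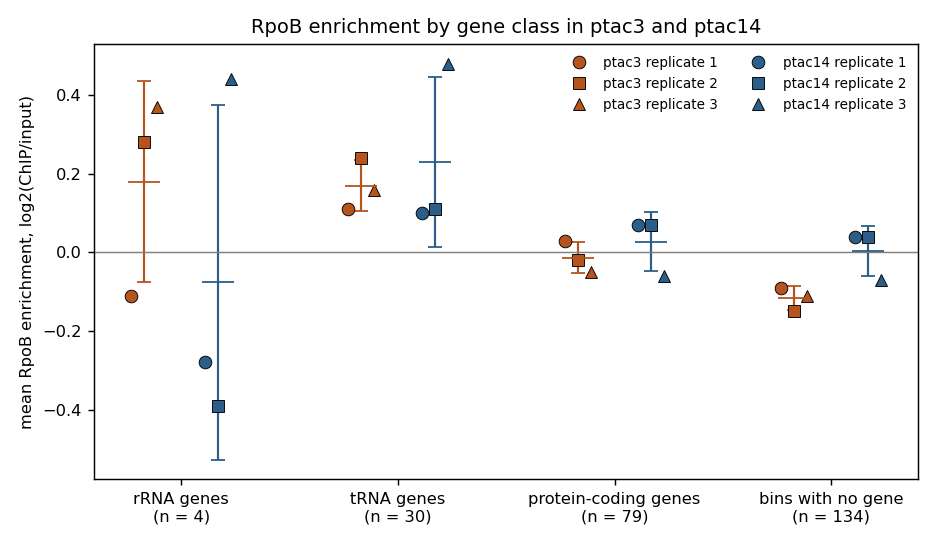
Mean RpoB enrichment, log2(ChIP/input), of 4 gene classes (x axis) in each replicate. Points are replicates, bars the mean and SD of 3, with ptac3 left of ptac14. The rRNA values run from -0.11 to 0.37 in ptac3 and from -0.39 to 0.44 in ptac14, and the bins with no gene are the one class without overlap.

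The rRNA operon, transcribed from upstream of rrn16S through trnI, trnA, rrn23S and rrn4.5S, showed the same split bin by bin. The region from rrn16S to trnR and its mirrored copy covered 75 bins, and the copies have the same sequence, so their reads cannot be assigned to one of them. In ptac3, 18, 75 and 74 of these bins were above input. In ptac14, 0, 0 and 75 of them were. Median enrichment over the region was -0.07, 0.25 and 0.45 in ptac3, against -0.42, -0.44 and 0.47 in ptac14. The split ran between ptac14 replicates 1 and 2 on one side and ptac14 replicate 3 on the other, with the ptac3 replicates between their extremes. The bin centred 111 bp upstream of rrn16S, the most enriched around the operon in Col0, had values of -0.21, 0.44 and 0.32 in ptac3, against -0.41, -0.34 and 1.10 in ptac14. Its Col0 enrichment, averaged over both sets, was 2.74.

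**Figure D2:**
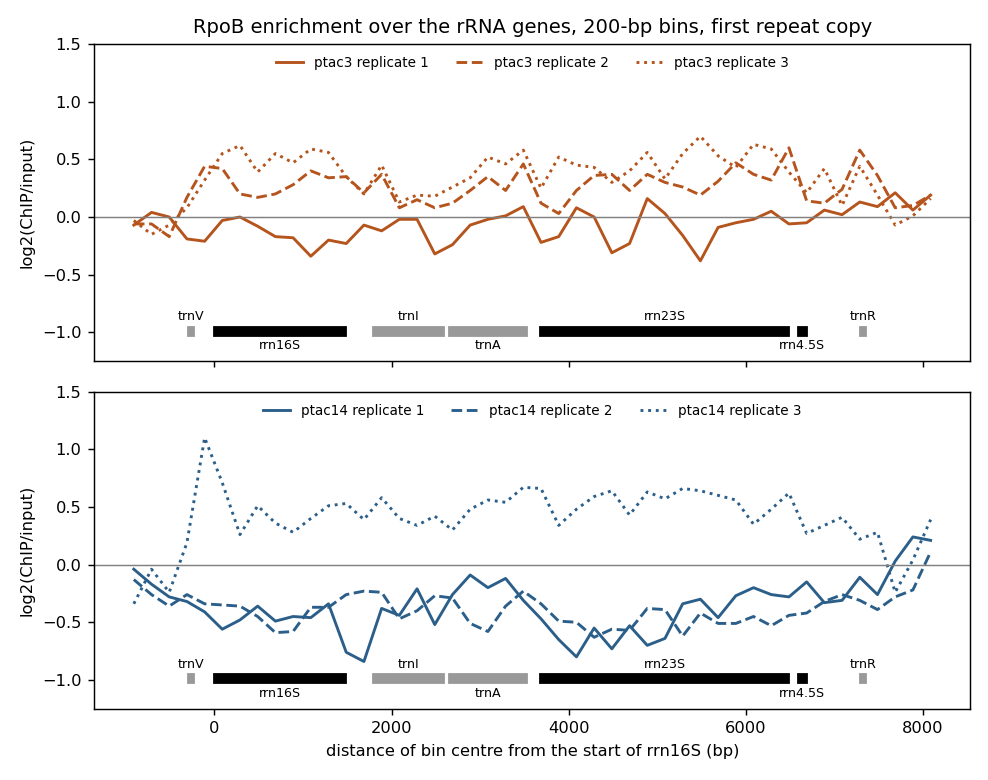
RpoB enrichment in 200-bp bins over the rRNA genes, by distance from the start of rrn16S, in ptac3 (upper panel) and ptac14 (lower panel), 1 line per replicate. Black boxes are rRNA genes and grey boxes tRNA genes. ptac14 replicates 1 and 2 lie below 0 over the whole operon and ptac14 replicate 3 above it, while ptac3 replicate 1 lies near 0 and ptac3 replicates 2 and 3 above it.

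Single genes of the operon had wide intervals. The gene for 16S rRNA, rrn16S, had enrichments of -0.14, 0.30 and 0.53 in ptac3, against -0.46, -0.43 and 0.44 in ptac14. The difference was 0.38 (SE 0.27, 95% confidence interval -0.24 to 1.00, limma adjusted p = 0.572). The gene for 23S rRNA, rrn23S, had -0.08, 0.30 and 0.48 in ptac3, against -0.48, -0.50 and 0.55 in ptac14, a difference of 0.38 (interval -0.29 to 1.04, limma adjusted p = 0.582). In both genes ptac14 replicates 1 and 2 were the lowest of the 6 libraries and a replicate 3 the highest, and the mutants overlapped. The intron-containing alanine tRNA gene trnA between them differed by 0.25, with limma adjusted p = 0.679. Single libraries moved these differences. Without ptac14 replicate 3 they were 0.67 at rrn16S, 0.72 at rrn23S and 0.52 at trnA, with limma adjusted p from 0.108 to 0.117. Without ptac14 replicate 1 they were 0.22 and 0.21 at rrn16S and rrn23S, without ptac14 replicate 2 they were 0.24 and 0.20, and without ptac3 replicate 3 they were 0.23 and 0.25. At trnA the lowest was 0.05, without ptac14 replicate 2.

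The largest difference of any gene toward ptac3 was at the arginine tRNA gene trnR (ArthCt127) at the end of the operon. It had enrichments of 0.10, 0.65 and 0.62 in ptac3, against -0.01, -0.31 and 0.24 in ptac14. Only ptac3 replicate 1 fell within the ptac14 range. The difference was 0.48 (SE 0.19, interval 0.04 to 0.92), with limma adjusted p = 0.329.

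Across all 113 genes tested, 0 passed a limma adjusted p of 0.05 for ptac3 minus ptac14, which is 0% of them, and the lowest adjusted p was 0.27. At an unadjusted p under 0.05, 14 genes (12.4%) passed. The standard error of a gene's difference had a median of 0.11 and reached 0.29. The difference was above 0 for 45 genes and below 0 for 68, with a median of -0.03.

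The genes with the most negative differences lay partly side by side. In 15 of the 113 genes all ptac3 replicates were below all ptac14 replicates. Among them, psbK, psbI, trnS (ArthCt091), trnG (ArthCt092), trnR (ArthCt093) and atpF are close neighbours. The run is broken by atpA, between trnR (ArthCt093) and atpF, which differed by -0.00 with overlap. psbK and atpF differed by only -0.16 and -0.17. This set of neighbours was picked out after its values were seen and has no test of its own. psbI, a small photosystem II subunit, had -0.17, -0.09 and -0.05 in ptac3, against 0.36, 0.39 and 0.14 in ptac14. Every ptac3 replicate was below input and every ptac14 replicate above it, but the difference of -0.40 (SE 0.10) had a limma adjusted p of 0.27. The scaled input of psbI was 0.90 in ptac3 and 0.82 in ptac14. The serine tRNA gene trnS (ArthCt091) had 0.27, 0.04 and -0.24 in ptac3, against 0.54, 0.43 and 0.51 in ptac14. There the ptac14 replicates were tight and the ptac3 replicates spread downward, for a difference of -0.47 (limma adjusted p = 0.27).

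A second arginine tRNA gene, trnR (ArthCt093), had the most negative difference of all genes, -0.63 (SE 0.21, interval -1.12 to -0.13, limma adjusted p = 0.27). Its enrichments were 0.29, -0.62 and -0.39 in ptac3, against 0.39, 0.32 and 0.46 in ptac14. Without ptac3 replicate 1, the one ptac3 value above input, it passed the threshold with a difference of -0.89 and a limma adjusted p of 0.0083. Leaving out any other replicate gave differences from -0.67 to -0.44, with limma adjusted p from 0.183 to 0.678. The leave-out that passed removes the ptac3 value that disagreed with the others, so its call is a description only. The photosystem I subunit gene psaI had 0.22, -0.43 and -0.16 in ptac3, against 0.64, 0.53 and 0.15 in ptac14, with overlap between the mutants and a difference of -0.56 (limma adjusted p = 0.27). The threonine tRNA gene trnT had 0.39, 0.19 and 0.50 in ptac3, against 0.48, 0.46 and 1.28 in ptac14. Its difference of -0.38 became -0.11 without ptac14 replicate 3.

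In the other direction, 7 of 113 genes had all ptac3 replicates above all ptac14 replicates, among them psbD, psbC, psaB, psaA, psbB and rps7. rps7, which encodes a small-subunit ribosomal protein, had 0.11, 0.07 and 0.02 in ptac3, against -0.14, -0.16 and -0.34 in ptac14. All ptac3 values were above input and all ptac14 values below it, for a difference of 0.28 (SE 0.09, limma adjusted p = 0.27). psbC, an inner antenna protein gene of photosystem II, had -0.02, -0.05 and 0.02 in ptac3, against -0.24, -0.33 and -0.18 in ptac14, and psaA, a photosystem I reaction centre gene, had -0.12, -0.03 and -0.04 against -0.17, -0.18 and -0.28. Their differences were 0.23 and 0.15, with limma adjusted p of 0.311 and 0.459.

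**Figure D3:**
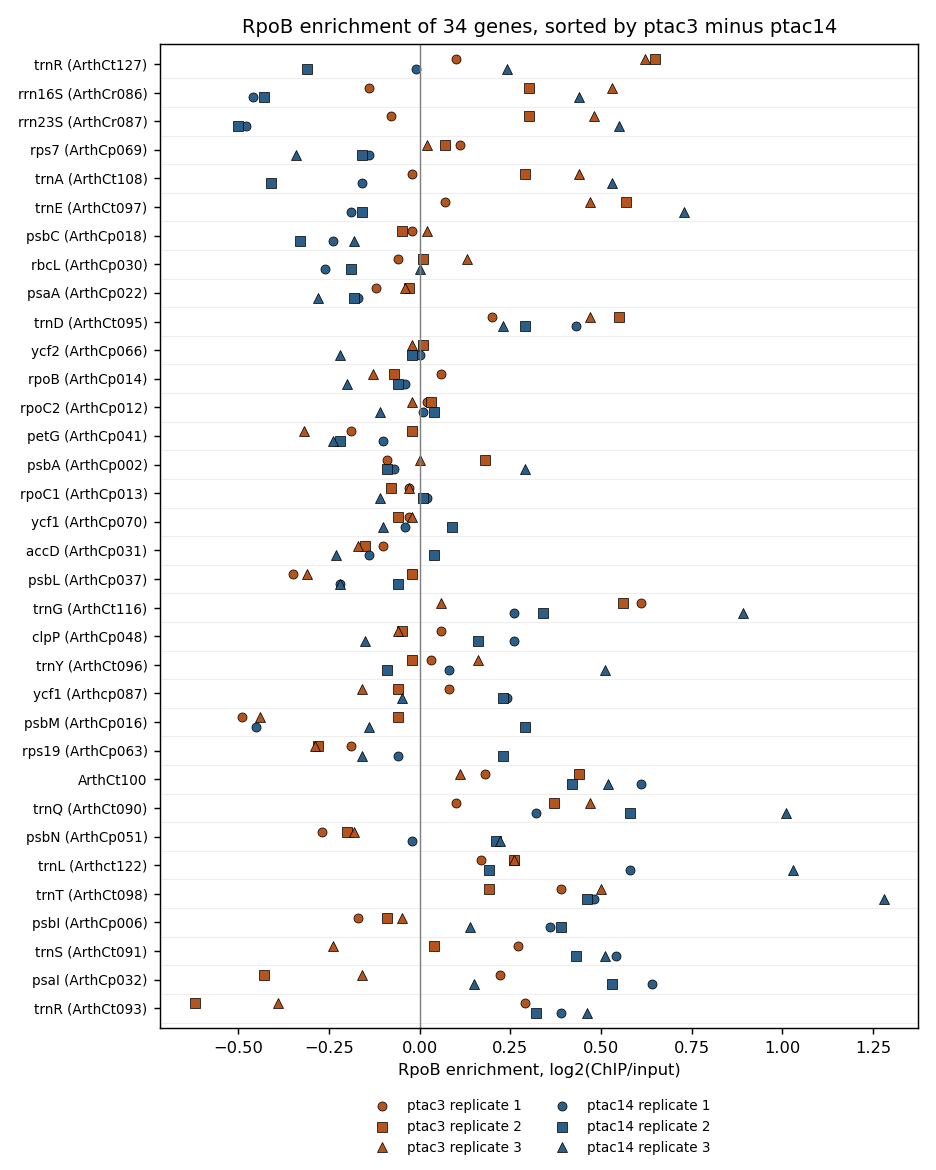
RpoB enrichment, log2(ChIP/input), of 34 named genes in each replicate, with ptac3 above ptac14 in every row and rows sorted by the difference. trnR (ArthCt127) at the top differs by 0.48 and trnR (ArthCt093) at the bottom by -0.63, and 0 of the 34 differences passed the threshold.

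Genes grouped by function did not part the mutants at the single-gene threshold either. Of 14 genes listed as PEP-transcribed, 12 had a difference above 0, beside 45 of all 113 genes. The list holds only part of the genes that PEP transcribes. Of the 30 tRNA genes, 13 differed above 0 and 17 below, and of 15 photosystem II genes 5 above and 10 below. Some of the 14 members, such as rrn16S and rrn23S, share a transcription unit and do not count separately. In 5 of the 14 every ptac3 replicate was above every ptac14 replicate, beside 7 of the 113. The median difference of the 14 was 0.16, beside -0.03 over all genes, and 0 passed the test. The members included psbD and psbB, at 0.17 each, and rbcL, the gene of the large Rubisco subunit, at 0.18 (-0.06, 0.01 and 0.13 in ptac3, against -0.26, -0.19 and 0.00 in ptac14, limma adjusted p = 0.471). psbA, which encodes the D1 protein of photosystem II and is among the most transcribed plastid genes, differed by -0.01 (interval -0.32 to 0.29), with -0.09, 0.18 and 0.00 in ptac3 and -0.07, -0.09 and 0.29 in ptac14. The trnE, trnY and trnD genes form a single PEP-transcribed unit, and their differences were 0.24, -0.11 and 0.09. trnE, whose product also starts tetrapyrrole synthesis, had 0.07, 0.57 and 0.47 in ptac3, against -0.19, -0.16 and 0.73 in ptac14. ptac14 replicate 3 was the highest of the 6 libraries and ptac14 replicates 1 and 2 the lowest. The trnE difference was 0.54 without ptac14 replicate 3, 0.39 without ptac3 replicate 1, 0.14 without ptac3 replicate 2, 0.10 without ptac14 replicate 2 and 0.08 without ptac14 replicate 1.

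Of 8 entries on the list of genes with known NEP promoters, 3 differed above 0 and 5 below 0, with a median of -0.02, and 0 passed. The list holds both entries of ycf1, which do not count separately. rpoB, rpoC1 and rpoC2, which encode core subunits of PEP itself, differed by 0.05, -0.01 and 0.03, with intervals within -0.21 and 0.27. accD, a subunit gene of acetyl-CoA carboxylase, differed by -0.03, the protease gene clpP by -0.11, ycf2 by 0.08, and the ycf1 entries by -0.02 (ArthCp070) and -0.19 (Arthcp087). Median differences of the remaining lists were -0.02 for 15 photosystem II genes, 0.06 for 5 photosystem I genes, -0.02 for 6 cytochrome b6f genes, and 0.04 for 6 ATP synthase genes. They were -0.05 for 11 NDH genes, -0.10 for 9 large-subunit and -0.03 for 12 small-subunit ribosomal protein genes. In each of these lists 0 genes passed.

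Each mutant was also tested against its own input. The fit gave both mutants a shared estimate of spread, so each of these tests also uses the spread of the other mutant. In ptac3, 0 of 113 genes passed the limma adjusted p of 0.05, with 18 at an unadjusted p under 0.05. In ptac14, 10 genes passed (8.85% of those tested): 9 (7.96%) were above input and 1 (0.885%), psbC at -0.25, was below. The highest were tRNA genes, trnT at 0.74 ± 0.47, trnQ at 0.63 ± 0.35, trnL (Arthct122) at 0.60 ± 0.42 and the tRNA gene ArthCt100 at 0.52 ± 0.10 (SD, n = 3). Their limma adjusted p values were 0.0338, 0.0338, 0.0393 and 0.0247. The others above input were trnS (ArthCt091), trnC, rpl32, psbI and ndhI, of which trnC, rpl32 and ndhI were named after their values were seen. In ptac3 the means of trnT, trnQ, trnL (Arthct122) and ArthCt100 were 0.36, 0.31, 0.23 and 0.25, with limma adjusted p between 0.203 and 0.475. The pTAC3 ChIP background without antigen averaged 0.47, 0.53, 0.44 and 0.37 at these genes, above the ptac3 means and below the ptac14 means. A gene past the threshold in ptac14 and not in ptac3 is not thereby shown to differ between them, and the direct test called 0 genes. Without ptac14 replicate 3, 4 of the 10 passed (3.54% of genes): psbI, trnT, ArthCt100 and ndhI. The count was 0 without ptac14 replicate 1, 2 without ptac14 replicate 2, 1 without ptac3 replicate 2, 2 without ptac3 replicate 3 and 12 without ptac3 replicate 1.

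The highest mean enrichments in ptac3 were also mostly at tRNA genes. trnR (ArthCt127) averaged 0.46 ± 0.31, trnG (ArthCt116) 0.41 ± 0.30, trnD 0.41 ± 0.19, trnE 0.37 ± 0.26 and trnT 0.36 ± 0.16 (SD, n = 3). In ptac14 the same genes averaged -0.02 ± 0.27, 0.49 ± 0.34, 0.31 ± 0.10, 0.13 ± 0.52 and 0.74 ± 0.47. The lowest means in ptac3 were at short genes: psbM at -0.33, rps19 at -0.25, trnR (ArthCt093) at -0.24, psbL at -0.23 and psbN at -0.22. In ptac14 they were at psbC with -0.25, psaA and rps7 with -0.21 each, petG with -0.18 and psbL with -0.17. None of these ptac3 values passed the test against input, and of the ptac14 values only those of the 10 genes above did.

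At the scale of 200-bp bins, 1 of 771 bins passed the limma adjusted p of 0.05 for ptac3 minus ptac14 (0.13%), and 84 bins (10.9%) had an unadjusted p under 0.05. The bin lies at positions 4601 to 4800 of the coverage table, in the spacer between trnK and rps16, and overlaps no gene. Its enrichment was -0.60, -0.43 and -0.33 in ptac3, against 0.43, 0.64 and 0.62 in ptac14. All ptac3 values were below input, all ptac14 values were above it, and the groups did not overlap. ptac3 was lower by a difference of -1.02 (SE 0.13, interval -1.30 to -0.73, limma adjusted p = 0.00923). ChIP coverage of the bin averaged 21.7, 38.7 and 47.3 reads per position in ptac3, against 32.5, 76.9 and 48.4 reads in ptac14. Input coverage averaged 164, 286 and 146 reads in ptac3, against 242, 257 and 155 reads in ptac14.

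The called bin was poorly covered in the inputs of both mutants. Scaled input of the called bin was 0.34 in ptac3 and 0.28 in ptac14, where 1 is the library mean and the median bin had 1.02. Its log2 input differed by 0.24 between the mutants (limma adjusted p = 0.608), and the part of low coverage in the result was not tested. The call was lost with a pseudocount of 25% of the library mean (difference -0.66, limma adjusted p = 0.0513), with ChIP and input fitted as 12 unpaired libraries (adjusted p = 0.139), and without ptac3 replicate 1, ptac3 replicate 2 or ptac14 replicate 2 (adjusted p from 0.0692 to 0.109). Without ptac14 replicate 3 the call held, at a difference of -0.99 (limma adjusted p = 1.45e-05). Col0 of the ptac3 set had an enrichment of -0.29 at this bin, and Col0 of the ptac14 set one of -0.38. The pTAC3 ChIP background without antigen averaged -0.21 ± 0.39 there, against -0.45 ± 0.14 for RpoB in ptac3 and 0.57 ± 0.11 in ptac14 (SD).

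The adjoining bins went the same way, below the threshold with these settings. At 4401 to 4600 the enrichment was -0.27, -0.34 and -0.30 in ptac3, against 0.30, 0.38 and 0.40 in ptac14, and the difference of -0.67 had a limma adjusted p of 0.0592. It passed under 6 alternatives: scaling to the median bin (limma adjusted p = 0.0471), the mean of the 3 inputs (0.0336), a replicate block (0.0246), 12 unpaired libraries (0.00868), the second repeat copy left out (0.0343) and ptac14 replicate 3 left out (0.00155). Without ptac14 replicate 3 the difference of this bin was -0.65. Without any other replicate its limma adjusted p lay between 0.118 and 0.526. Scaled input there was 0.85 in ptac3 and 0.80 in ptac14, near the lowest bins of the genome, since 5% of the 771 bins lie under 0.80. The Col0 enrichments were 0.94 (ptac3 set) and 1.13 (ptac14 set), and the background without antigen averaged -0.12 ± 0.12 (SD). At 4801 to 5000 the difference was -0.80, with a limma adjusted p of 0.217, which was 0.0226 with the replicate block. Without ptac14 replicate 3 that difference was -0.92, with a limma adjusted p of 8.5e-05. The background at 4801 to 5000 averaged -0.26 ± 0.30, against -0.70 ± 0.28 for RpoB in ptac3 and 0.10 ± 0.21 in ptac14 (SD). The other most negative differences were at bins 59001 to 59200 and 119001 to 119200, both outside genes, at -0.67 and -0.61. The 5 largest differences, from 0.51 to 0.58, were all in rrn23S or its mirrored copy, with adjusted p of 0.498 or above.

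Without ptac14 replicate 3, 122 bins were called between the mutants (15.8% of 771), where 1 was called with all replicates. Of these 73 (9.47% of all bins) were higher in ptac3 and 49 (6.36%) lower. In the rRNA region 67 of 75 bins were higher in ptac3 and 0 lower, with a median difference of 0.65, beside 0.34 with all replicates. These 75 bins hold both repeat copies, which are not separate evidence. Among 513 bins overlapping protein-coding genes, 1 was higher and 25 lower, and among 134 bins with no gene, 6 were higher and 23 lower. The bins that were higher in ptac3 had a median scaled input of 1.09 and those lower in ptac3 of 0.86, against 1.02 over all bins. Against input, 54 of the 75 rRNA-region bins were then below input in ptac14 and 0 above, while in ptac3 10 were above and 0 below. Over all bins, 11 (1.43%) were above and 36 (4.67%) below input in ptac3, or 6.1% together, against 33 (4.28%) above and 66 (8.56%) below in ptac14, or 12.8% together. The library left out was singled out because its enrichment disagreed with the other ptac14 replicates. Leaving it out thus narrows the ptac14 spread by choice, and the calls without it are a description only. With 2 ptac14 replicates left, the shared estimate of spread also rests more on ptac3. Leaving out any other replicate gave 0 or 1 called bins, and 0 genes passed without ptac14 replicate 3, with a lowest limma adjusted p of 0.0672 and 30 genes at an unadjusted p under 0.05.

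**Figure D4:**
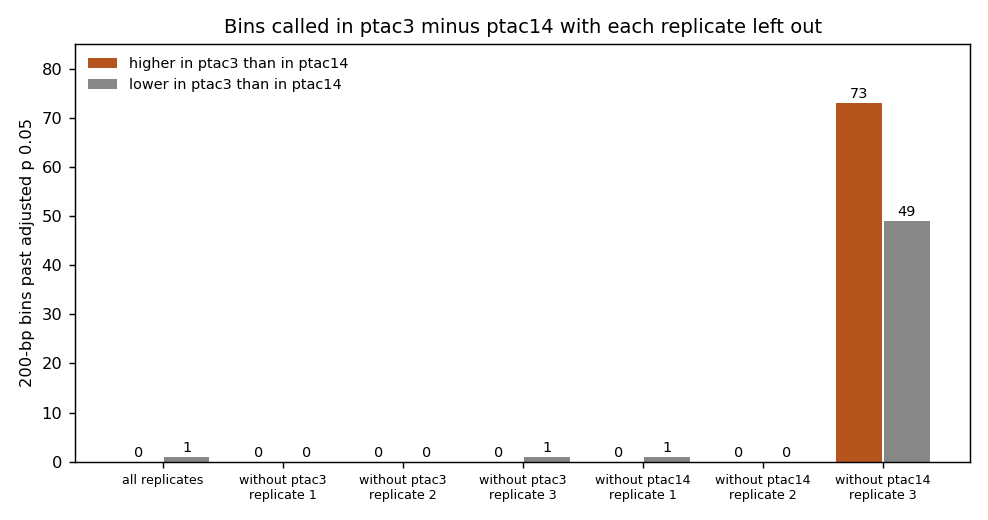
Number of 200-bp bins past a limma adjusted p of 0.05 for ptac3 minus ptac14, with all replicates and with each replicate left out in turn (x axis), split by direction. 73 bins are higher and 49 lower in ptac3 without ptac14 replicate 3, and 0 or 1 bin is called in each other case.

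How far the remaining signal followed the wild-type map also differed more between replicates than between mutants. Over the 771 bins, correlation with the Col0 enrichment averaged over both sets was -0.13, 0.36 and 0.55 in ptac3, against -0.37, -0.35 and 0.81 in ptac14. The slope on the Col0 profile was -0.02, 0.067 and 0.1 in ptac3, against -0.076, -0.07 and 0.2 in ptac14. A slope of 1 would mean the full wild-type contrast on the log2 scale. ptac14 replicate 3 had the steepest slope and ptac14 replicates 1 and 2 the most negative ones, with the ptac3 replicates between. In the 78 bins most enriched in Col0, at a mean of 1.96, enrichment was -0.09, 0.24 and 0.40 in ptac3, against -0.37, -0.36 and 0.53 in ptac14. In the 77 bins least enriched in Col0, at a mean of -1.76, it was -0.04, -0.05 and -0.07 in ptac3, against -0.06, -0.05 and -0.25 in ptac14. ptac14 replicate 3 had the highest value in the bins most enriched in Col0 and the lowest in those least enriched.

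**Figure D5:**
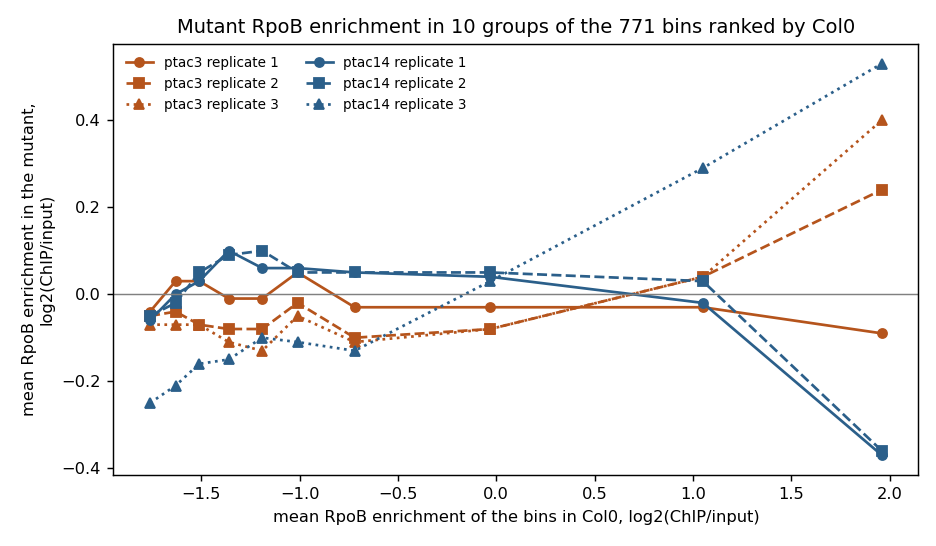
Mean RpoB enrichment of each mutant replicate (y axis) in 10 groups of the 771 bins ranked by Col0 enrichment (x axis, mean of the group), both as log2(ChIP/input). In the group most enriched in Col0 the lines fan out from -0.37 and -0.36 in ptac14 replicates 1 and 2 to 0.40 in ptac3 replicate 3 and 0.53 in ptac14 replicate 3.

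The spread of the profile over bins was smaller in ptac3 by value. The standard deviation of enrichment over bins was 0.193, 0.223 and 0.224 in ptac3, against 0.244, 0.24 and 0.292 in ptac14. The groups did not overlap. The means were 0.213 ± 0.0173 in ptac3 and 0.258 ± 0.0287 in ptac14 (SD, n = 3 each), with p = 0.1 in the exact permutation test, the smallest possible, and an adjusted value of 0.35 over the 7 exact tests. Without ptac14 replicate 3 the difference of -0.0452 shrank to -0.0286, still without overlap. Counting error also enters this spread, and the ChIP of ptac14 replicate 1 was the shallowest, at 69.09 reads. The part of depth in the difference was not tested. A larger spread is also not more of the wild-type pattern, since ptac14 replicates 1 and 2 correlated with Col0 at -0.37 and -0.35. The inputs of the mutants differed at 0 of 771 bins and 0 of 113 genes in limma, with 60 bins and 11 genes at an unadjusted p under 0.05. The lowest limma adjusted p of a gene was 0.0536, at rpl32, whose log2 input was higher in ptac3 by 0.21. The part of input in the gene differences was not tested.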

How the data were processed

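The authors deposited a single table of read coverage, a whole-number signal recorded under the unit other, in which the 36 libraries are columns and the 154477 plastid positions are lines. Per the submitters' processing notes, Trim Galore 0.4.1, Bowtie2 2.2.8.9, bedtools 2.25.0 and the TAIR10 genome were named. How reads of the inverted repeat and duplicates were treated is not given in the sources used here. Gene names came from a RefSeq table for TAIR10.1. Base-to-base steps of coverage in the repeat copies, mirrored about the paired genes, matched best without any shift in 12 of 12 libraries.

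Coverage was averaged over 200-bp bins and over 113 genes, taking the first repeat copy of each mirrored gene pair. It was scaled to the library mean, given a pseudocount of 5% of that mean and expressed as log2(ChIP/input) per replicate. Of 772 bins, 1 was left out because its scaled input averaged below 10% of the median bin. limma 3.58.1 in R 4.3.3 fitted the 6 values with a mean per mutant (two-sided, Benjamini-Hochberg over all bins or genes, threshold 0.05), since coverage is not counts. Class means and the spread over bins were tested by exact permutation (scipy 1.17.1 adjusted these p-values). The limma step was run on simulated data with independent noise for every bin or gene. Such data hold no shifts shared by many bins of a library, so the behaviour of the fit under them was not tested. Of 12 replicate pairs, 0 were identical, and at positions 300 bp apart all differed by more than counting error (chi-square of 1.6 or more per degree of freedom). Intervals cover the spread between replicates, and counting errors cover counting only, since reads carry no molecular identifiers.

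Named genes were the 5 largest and 5 most negative differences, the 5 highest and 5 lowest means per mutant, and 14 fixed symbols. Named bins were the 5 largest and 5 most negative differences. Members and lists were chosen with earlier results of these data known. Alternatives were other pseudocounts, scalings, bin sizes, input handling, repeat copies, a replicate block and leaving out each replicate.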

Additional observations from a re-analysis of the deposited data

Results flagged for a closer look

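At positions 4601 to 4800, between trnK and rps16, enrichment was below input in 3 of 3 ptac3 replicates and above input in 3 of 3 ptac14 replicates, and the difference between the mutants of -1.02 passed the limma threshold. At the adjoining bin 4401 to 4600 every ptac3 replicate was likewise below input and every ptac14 replicate above it, with a difference of -0.67 that did not pass with the settings of the report (limma adjusted p = 0.0592) and passed under 6 alternatives (limma adjusted p from 0.00155 to 0.0471). psbI showed the same opposition, with a difference of -0.40 (limma adjusted p = 0.27). rps7 showed it the other way round, with every ptac3 replicate above input and every ptac14 replicate below it, for a difference of 0.28 (limma adjusted p = 0.27). These genes and bins were selected for naming by the size of their differences or means, so the oppositions do not count as separate evidence. The pTAC3 ChIP background without antigen averaged -0.21 ± 0.39 at 4601 to 4800 and -0.12 ± 0.12 at 4401 to 4600 (SD).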

How the results depend on the processing

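The count of called bins for ptac3 minus ptac14, 1 with the settings of the report, was 0 with a pseudocount of 25%, 2 with libraries scaled to their median bin, 2 with the mean of the 3 inputs, 0 with 50-bp bins, 0 with 1000-bp bins and 2 with the second repeat copy left out. Leaving out 1 replicate gave 0 to 122. Bins of ptac3 past the threshold against input, 0 in the report, were 4 with 12 unpaired libraries, 3 with 50-bp bins, 6 without the second repeat copy and 0 to 47 with a replicate left out. For ptac14, also 0 in the report, they were 5, 1, 1 and 0 to 99 under these settings. Genes of ptac3 past the threshold against input were 1 with mean inputs, 1 with 12 unpaired libraries and 0 to 3 with a replicate left out, and genes of ptac14, 10 in the report, were 17 with scaling to rpoB, rpoC1 and rpoC2, 17 with 12 unpaired libraries and 0 to 12 with a replicate left out. Genes called between the mutants and between their inputs numbered 0 to 1 with a replicate left out. The tRNA difference ran from -0.13 to 0.06 and the tRNA over protein-coding contrast from -0.11 to 0.15 with a replicate left out, changing sign. Fitting the replicate number as a block gave 3 called bins between the mutants, 18 for ptac3 and 20 for ptac14 against input, 1 between the inputs, and 1 gene for ptac14 against input. Deviations of same-numbered replicates correlated at r = 0.38, -0.20 and 0.51, and not every replicate correlated best with its own number. Whether the numbers pair the samples cannot be settled from these values, since ptac14 replicate 3 weighs on every ptac14 deviation. Differences of petG (-0.02 with scaling to the median bin, -0.02 with scaling to rpoB, rpoC1 and rpoC2) and rpoC2 (-0.00 with scaling to the median bin) changed sign. With a replicate left out, signs changed for trnG (ArthCt116, -0.20 to 0.11), psbL (-0.17 to 0.00), petG (-0.07 to 0.08), psbA (-0.09 to 0.11), rpoC2 (-0.02 to 0.06), rpoC1 (-0.06 to 0.01), rpoB (-0.00 to 0.09), trnY (-0.24 to 0.06), accD (-0.09 to 0.04) and ycf1 (ArthCp070, -0.06 to 0.03). These scalings moved the median difference by -0.02 to -0.03. The causes were not tested. With ChIP coverage between 69.09 and 204.2 reads per position and 3 replicates, gene differences smaller than about their intervals were not detectable.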
